A study of Mus musculus with 2 samples.

Results

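Macrophages sense their surroundings through a small set of receptors for growth factors and cytokines, and 9 of these receptor genes (Csf1r, Csf2ra, Csf2rb, Il10ra, Il4ra, Ifngr1, Tgfbr1, Tgfbr2 and Flt3) were examined here, out of 54838 genes counted. The cells were CD64+ CD45int macrophages sorted from the combined sciatic nerves (SNs) of 19 male Flt3-Cre LSL-YFP fl/fl mice aged 10 to 12 weeks, and they were captured as a YFP− and a YFP+ library. All the mice carried both alleles. Cre is driven by regulatory sequence of the Flt3 gene in these mice, so YFP marks a cell whose ancestors once expressed Flt3, and it is a record of history rather than of present expression. YFP− and YFP+ cells therefore differ in origin as the reporter records it, and the comparison asks whether the receptors differ with it.

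CSF1R is the receptor tyrosine kinase for CSF1 and IL-34, on which most tissue macrophages depend for survival. CSF2RA and CSF2RB are the ligand-binding and the shared signalling chains of the GM-CSF receptor. IL10RA, IL4RA and IFNGR1 are the ligand-binding chains for IL-10, IL-4 and interferon-gamma, and they signal through Janus kinases (JAKs) and STAT transcription factors. TGFBR1 and TGFBR2 are the type I and type II chains of the TGF-beta receptor. TGFBR2 binds the ligand and then phosphorylates TGFBR1, which activates SMAD proteins. FLT3 is a receptor kinase of blood progenitors and dendritic cells. CSF1 and IL-34 reach macrophages from other cells of their tissue, and TGF-beta is made by many cell types, macrophages among them.

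Cells were barcodes with at least 500 unique molecular identifiers (UMIs, each standing for 1 captured RNA molecule) and 200 genes. The YFP− library held 1045 cells with a median of 2233 UMIs, and the YFP+ library held 4053 cells with a median of 1484 UMIs. These cells held 66.2% and 72.0% of each library's UMIs, 2418044 and 6747554 in all, and 7 barcodes were cells in both libraries. The labelled cell type was borne out by its markers: the 9 macrophage markers, among them Adgre1, Fcgr1 and the C1q chains, summed to 18792 in the YFP− and 19071 in the YFP+ library, with none at 0, in counts per 1000000 UMIs of the library's cells (CPM). Fcgr1 encodes CD64, on which the cells were sorted, so it is not separate evidence of the cell type. Some cell types of the nerve differed between the libraries. The 8 monocyte markers summed to 329.6 and 793 CPM, nearly all of it from Ccr2, S100a4 and S100a6, with 3 and 4 of the 8 at 0. The 6 mural markers summed to 11.2 and 143 CPM. With 1 library per condition no test between conditions was possible, and every interval below is an exact 95% interval that covers counting error only.

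Csf1r was by far the most abundant of the 9 receptors, and Flt3 was the least abundant, in both libraries. A UMI is counted once per molecule at its 3′ end, so these levels are CPM that need no scaling by gene length. Csf1r (chr18:61100598-61132149, GRCm38, plus strand) stood at 992 CPM (953–1033) among YFP− and 873 CPM (851–896) among YFP+ cells, from 2399 and 5891 UMIs. Both levels lay above those of 97.4% and 97.3% of the 5531 genes with a mean of at least 20 CPM. The log2 ratio of YFP+ over YFP−, taken here and throughout on CPM with a pseudocount of 1, was −0.18 (−0.25 to −0.12) for Csf1r. The intervals of the libraries did not overlap, and the difference was small.

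The next receptors in level were Ifngr1 and Csf2ra. Ifngr1 (chr10:19591949-19610229, plus strand) held 290.3 CPM (269–313) among YFP− and 325 CPM (311–339) among YFP+ cells, a log2 ratio of 0.16 (0.04 to 0.29) whose interval left out 0, although those of the levels just met. Csf2ra (chr19:61223957-61228429, minus strand) held 285 CPM (264–307) and 296 CPM (283–309), a log2 ratio of 0.06 (−0.07 to 0.18). Ifngr1 and Csf2ra were thus level within counting error in YFP− cells, while Ifngr1 stood above Csf2ra in YFP+ cells, where their intervals did not overlap. For Csf2ra the intervals of both libraries overlapped over all cells, where a difference beyond −0.07 or 0.18 on the log2 scale lay outside the counting error. Csf2ra was lower in YFP+ cells in those of 1000 to 2000 UMIs, at −0.29 (−0.54 to −0.03). It was also lower in a cluster of cells led by mitochondrial genes, at −0.37 (−0.72 to −0.01). In all other bins of depth and clusters the interval of Csf2ra held 0.

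The chains of the TGF-beta receptor came next, and they differed between the libraries in opposite directions. Tgfbr2 (chr9:116084293-116175360, minus strand) held 121 CPM (107–135) among YFP− and 99.0 CPM (91.6–107) among YFP+ cells, a log2 ratio of −0.28 (−0.48 to −0.08), with intervals that did not overlap. Tgfbr1 (chr4:47353222-47414931, plus strand) held 60.0 CPM (50.6–70.6) among YFP− and 92.5 CPM (85.4–100) among YFP+ cells. Its log2 ratio was 0.62 (0.36 to 0.88), a 1.53-fold higher level in YFP+ cells, and its intervals in the libraries did not overlap. Tgfbr1 was level with Il10ra and Il4ra in YFP− cells, and level with Tgfbr2 in YFP+ cells.

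The remaining receptors were of low level. Il10ra (chr9:45253837-45269149, minus strand) held 60.8 CPM (51.4–71.5) among YFP− and 55.7 CPM (50.2–61.7) among YFP+ cells, a log2 ratio of −0.12 (−0.40 to 0.16). Il4ra (chr7:125552120-125579474, plus strand) held 58.3 CPM (49.1–68.8) and 47.9 CPM (42.8–53.4), a log2 ratio of −0.28 (−0.56 to 0.01). Csf2rb (chr15:78325752-78353847, plus strand) held 27.3 CPM (21.1–34.7) and 28.5 CPM (24.6–32.8), a log2 ratio of 0.06 (−0.34 to 0.47). Over all cells the libraries overlapped for each of these receptors. Il4ra was lower in YFP+ cells beyond counting error in a cluster of cells led by Fosb, Jun and Fos, at −0.64 (−1.22 to −0.06), and in cells of 500 to 1000 UMIs, at −1.14 (−1.95 to −0.25). In cells of 1000 to 2000 and of at least 2000 UMIs its ratios were −0.28 (−0.88 to 0.37) and −0.32 (−0.69 to 0.05).

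Flt3 (chr5:147330741-147400489, minus strand), the gene whose regulatory sequence drives Cre in these mice, was counted 18 times in YFP− and 72 times in YFP+ cells. Those counts made 7.44 CPM (4.41–11.8) and 10.7 CPM (8.35–13.4), with a log2 ratio of 0.47 (−0.22 to 1.19) and overlapping intervals. Both levels were above the floor of 3 counts per library, which is 1.24 CPM among YFP− and 0.445 CPM among YFP+ cells. They were not above free RNA, measured in barcodes of 10 to 100 UMIs, where Flt3 stood at 8.79 and 9.34 CPM. Over all cells a difference in present Flt3 RNA was not detectable. By depth, a split chosen after seeing the data, Flt3 was counted 0 times in 288 YFP− cells and 33 times in 1568 YFP+ cells of 1000 to 2000 UMIs. In cells of at least 2000 UMIs it was counted 17 and 30 times, a log2 ratio of −0.10 (−0.91 to 0.75), and in cells of 500 to 1000 UMIs 1 and 9 times.

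**Figure D1:**
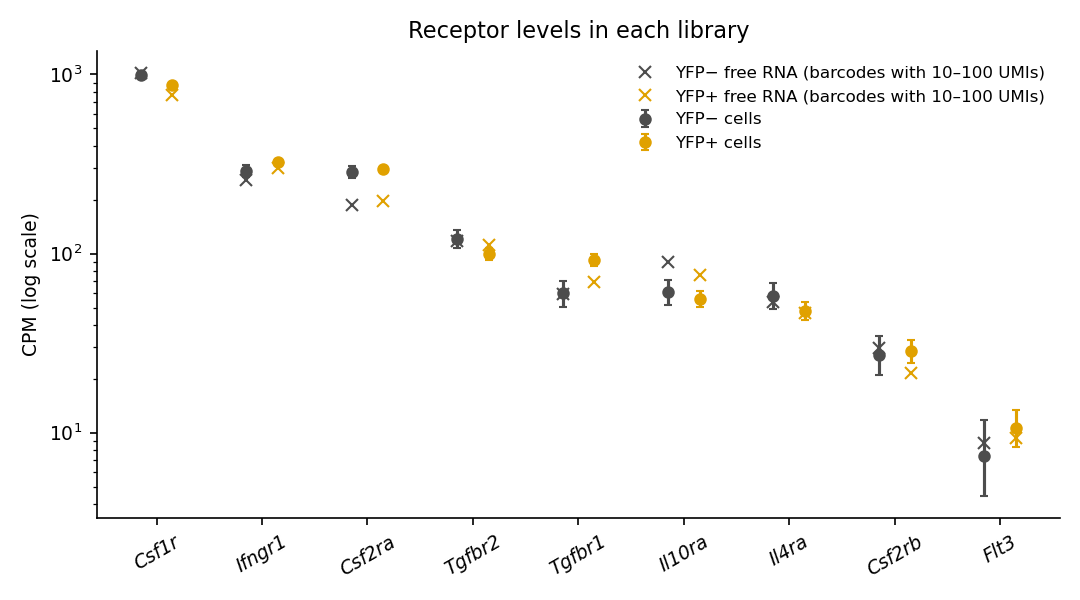
Levels of the 9 receptors in CPM on a log axis, in YFP− (grey) and YFP+ (gold) cells, with 1 library each. Circles are cells with exact Poisson 95% intervals and crosses are barcodes with 10 to 100 UMIs (free RNA). Csf1r at 992 and 873 CPM stands above the rest, Csf2ra lies above its crosses in both libraries, and Il10ra lies below them.

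The receptors were next set against all genes. Of the 9 receptors, 8 reached a mean of 20 CPM, and 1 of these, Tgfbr1, was at least 1.5-fold higher in YFP+ cells, while 0 were at least 1.5-fold lower. Over all 5531 genes at that level, 1.54% were at least 1.5-fold higher in YFP+ cells and 5.77% at least 1.5-fold lower. The median log2 ratio of the 8 receptors was −0.03, beside −0.00 for all genes, with 4 receptors above 0 and 4 below. The ratio of Tgfbr1 was higher than that of 98.8% of all genes, and that of Ifngr1 higher than 77.5%. At the other end, Il4ra and Tgfbr2 were above 14.6% and 14.3% of the genes.

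**Figure D2:**
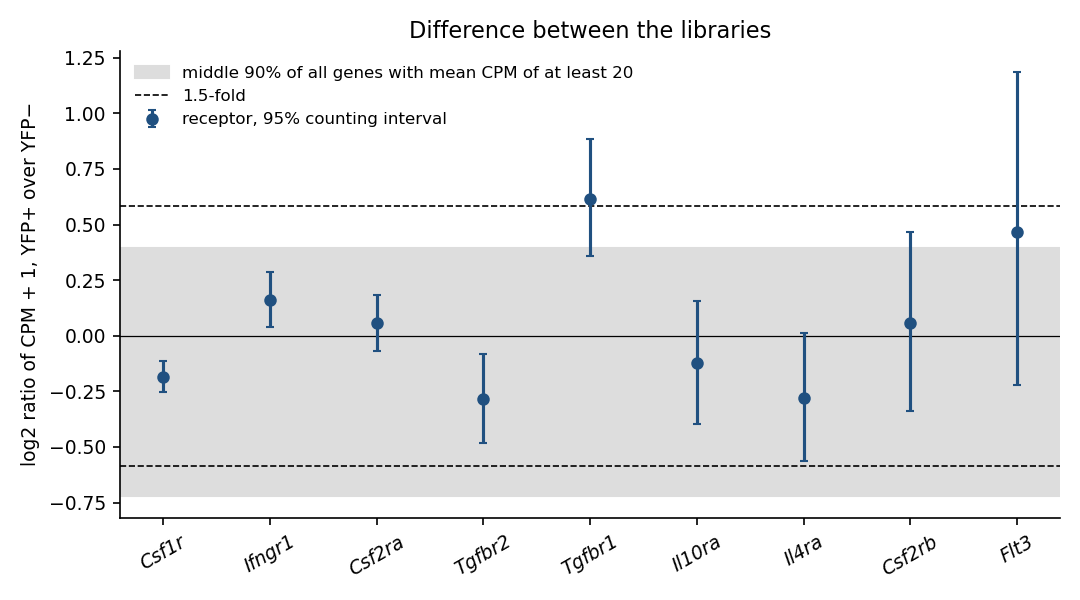
Log2 ratio of CPM + 1 in YFP+ over YFP− cells for each receptor (circles, exact 95% counting intervals, 1 library each), with dashed lines at 1.5-fold. The grey band holds the middle 90% of all genes with a mean of at least 20 CPM, from −0.72 to 0.39. Tgfbr1 at 0.62 lies above the band and the upper line, and its interval reaches down to 0.36.

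The call of Tgfbr1 was close to its threshold, since 1.5-fold is 0.58 on the log2 scale. With equal weight for each cell the log2 ratio was 0.42, and with a pseudocount of 10 CPM it was 0.55, both of them short of 1.5-fold. The direction was the same in each of the 12 alternatives tried, over which the ratio ran from 0.42 to 0.95. The highest value came from cells thinned in a random draw that was not repeated.

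The balance of the TGF-beta receptor chains joins their opposite differences in 1 value, which does not depend on the scale of either library. YFP− cells held 145 UMIs of Tgfbr1 and 292 of Tgfbr2, a ratio of 0.497 (0.404–0.608). YFP+ cells held 624 and 668, a ratio of 0.934 (0.836–1.04). These intervals did not overlap. In the free RNA the ratio was 0.505 (0.357–0.706) in the YFP− and 0.626 (0.504–0.775) in the YFP+ library, and there the intervals overlapped. In YFP+ cells the ratio lay above that of the library's own free RNA.

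The windows before the starts of these chains are shown so that the reader can see the regulatory sequence of the pair whose balance differed, and that of Csf2ra, which stood furthest above free RNA. Each is the 250 bases before a start of the gene listed by RefSeq on GRCm38.p6, read on the strand of the gene. For Csf2ra that start lies inside the gene as GENCODE places it, so the last bases of its window overlap the gene position given above. Capitals mark GAGGAA, a core of sites for PU.1 and other ETS factors, and GGGCGG, the GC box, each searched on both strands, and these did not overlap in the windows shown. PU.1, the product of Spi1, is a master regulator of macrophages, and GC boxes are bound by SP1 and related factors.
Tgfbr1 (chr4:47352972-47353221, plus strand): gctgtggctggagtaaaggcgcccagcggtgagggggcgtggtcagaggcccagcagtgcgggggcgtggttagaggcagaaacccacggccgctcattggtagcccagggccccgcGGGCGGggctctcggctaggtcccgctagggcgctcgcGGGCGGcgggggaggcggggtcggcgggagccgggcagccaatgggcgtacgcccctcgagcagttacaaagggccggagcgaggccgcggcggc
Tgfbr2 (chr9:116175364-116175613, minus strand): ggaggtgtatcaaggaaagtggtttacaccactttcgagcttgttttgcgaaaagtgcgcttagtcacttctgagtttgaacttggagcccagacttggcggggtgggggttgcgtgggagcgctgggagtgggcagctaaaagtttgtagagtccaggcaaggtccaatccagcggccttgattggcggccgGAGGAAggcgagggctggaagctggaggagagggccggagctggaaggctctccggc
Csf2ra (chr19:61228419-61228668, minus strand): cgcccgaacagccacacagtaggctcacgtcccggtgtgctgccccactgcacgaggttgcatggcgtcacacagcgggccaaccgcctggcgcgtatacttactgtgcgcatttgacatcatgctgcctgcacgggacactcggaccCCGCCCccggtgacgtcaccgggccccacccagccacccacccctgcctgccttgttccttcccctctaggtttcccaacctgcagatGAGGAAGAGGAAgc

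The Tgfbr1 window held 2 matches of GGGCGG and 0 of GAGGAA, and the Tgfbr2 window held 1 of GAGGAA and 0 of GGGCGG. The Csf2ra window held 2 adjacent matches of GAGGAA close to the start and 1 of GGGCGG. Among all 32851 windows of this length, 23.3% held GAGGAA and 32.7% held GGGCGG on either strand, so each motif is common and a match is only a description of the letters. RefSeq lists a second start of Tgfbr1, whose window held 1 match of GAGGAA and 0 of GGGCGG. Of the 9 receptors, 6 had a window in the table used.

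A comparison with free RNA bears on how far each level belongs to the cells. Csf2ra was the receptor with the clearest excess in cells, at a log2 ratio over free RNA of 0.61 (0.36 to 0.86) in the YFP− and 0.59 (0.44 to 0.75) in the YFP+ library. Il10ra went the other way, with −0.56 (−0.96 to −0.16) and −0.44 (−0.71 to −0.17), so that its RNA was scarcer in cells than in the free fraction of both libraries. The intervals of Csf2ra and Il10ra left out 0 in both libraries.

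For Csf1r the ratio over free RNA was −0.03 (−0.14 to 0.08) in the YFP− and 0.19 (0.11 to 0.27) in the YFP+ library. For Tgfbr1 it was 0.01 (−0.44 to 0.48) and 0.40 (0.14 to 0.67). Both receptors thus stood above free RNA in YFP+ and not measurably so in YFP− cells, though this contrast between libraries was not tested. Ifngr1, Tgfbr2, Il4ra, Csf2rb and Flt3 had intervals that held 0 in both libraries. Free RNA of a macrophage sort is itself largely macrophage RNA, so a level equal to it does not show that a receptor is lacking.

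The share of cells with a UMI was compared after each cell had been thinned at random to 500 UMIs. The draw was made once, and how far the shares move between draws was not measured. Csf1r was detected in 38.5% (35.5–41.5) of cells in the YFP− library and in 36.2% (34.8–37.7) of those in the YFP+ library. Before thinning the shares were 84.7% and 69.4%, at the libraries' unequal median depths of 2233 and 1484 UMIs. In the cluster of 99 cells led by the mural genes Acta2 and Tagln, with a median of 959 UMIs, the thinned share of Csf1r was 16.2% (9.5–24.9). If every UMI had come from free RNA, the thinned shares would have been 39.8% and 31.8%. Csf1r was therefore more frequent among all cells of each library, which include those of that cluster, than in the cluster itself. The 9 macrophage markers summed to 7907 CPM there, with none at 0, so the cluster is not a background free of macrophage RNA.

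Csf2ra was detected in 14.2% (12.1–16.4) of cells in the YFP− library and in 13.8% (12.7–14.9) of those in the YFP+ library, beside 5.05% (1.66–11.4) in the Acta2, Tagln cluster. Free RNA alone would have given 8.92% and 9.34%, below the interval in either library. Unthinned, Csf2ra was found in 41.1% and 34.4% of cells.

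Tgfbr1 was detected in 2.58% (1.71–3.74) of cells in the YFP− library and in 4.98% (4.33–5.70) of those in the YFP+ library at 500 UMIs. The intervals of these shares did not overlap in this draw. The log2 ratio of the thinned levels was 0.95, beside 0.42 with equal weight per cell and all UMIs. Free RNA alone would have given 2.92% and 3.43%, and the Acta2, Tagln cluster had 3.03% (0.63–8.60). In this draw the YFP− share was thus not above what free RNA would give, while the YFP+ share was. As free RNA here is largely macrophage RNA, a share at its level does not show that Tgfbr1 is lacking. The interval of the Acta2, Tagln cluster, from 3 cells with a UMI, held the shares of both libraries. At 1000 UMIs, which left 895 YFP− and 2869 YFP+ cells, the shares were 4.92% and 8.19%, and unthinned they were 11.5% and 12.9%.

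Ifngr1 was found in 13.2% and 14.4% of thinned cells, Tgfbr2 in 6.12% and 4.79%, and Il10ra in 3.83% and 3.21%, with free-RNA shares of 12.1% and 13.9%, 5.71% and 5.43%, and 4.41% and 3.74%. At 500 UMIs none of these shares had an interval wholly above its free-RNA value. At 1000 UMIs those of Ifngr1 did, with 27.7% (24.8–30.8) against 22.7% for free RNA in the YFP− library and 27.6% (25.9–29.2) against 25.9% in the YFP+ library. Il4ra was detected in 4.69% (3.49–6.15) of cells in the YFP− library and in 2.54% (2.08–3.07) of those in the YFP+ library at 500 UMIs, but in 5.14% and 4.78% at 1000 UMIs, where the intervals overlapped. Free RNA alone would have given 2.66% and 2.31% at 500 UMIs, and 5.24% and 4.56% at 1000 UMIs. In these draws the YFP− share of Il4ra lay above it only at the lower depth, and the draws were not repeated. The log2 ratio of the Il4ra levels thinned to 500 UMIs was −0.86, beside −0.42 with equal weight per cell and all UMIs. Csf2rb was found in 1.15% and 1.48% of thinned cells, and Flt3 in 0.191% and 0.617%, and free RNA alone would have given 1.47% and 1.08%, and 0.439% and 0.466%. The Csf2rb interval in YFP+ cells (1.13–1.90) lay above its free-RNA share, and the other intervals did not. Free-RNA shares carry counting error of their own, which these intervals leave out, and that of Csf2rb in the YFP+ library rests on 44 UMIs. With that error included, the levels of Ifngr1, Il4ra and Csf2rb over free RNA had intervals that held 0 in both libraries.

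At least 1 of the 9 receptors was detected in 61.1% (58.0–64.0) of YFP− and 59.9% (58.3–61.4) of YFP+ cells at 500 UMIs. Without thinning the shares were 95.3% and 88.6%, with a median of 2 different receptors per cell and a maximum of 6 and 7. With all UMIs, Csf1r and Csf2ra were found together in 371 YFP− and 1050 YFP+ cells, where 422 and 1152 follow if each cell held the library mean at its own depth. This shortfall was not particular to the pair. All pairs among Csf1r, Csf2ra, Ifngr1, Tgfbr2 and Tgfbr1 fell short in both libraries, at 0.73 to 0.98 of the number that follows. Thinned cells did not show a deficit beyond counting error. Csf1r and Csf2ra were together in 52 thinned YFP− cells, where the product of their shares gives 56.9, a ratio of 0.91 (0.68–1.20). In YFP+ cells they were found together in 190 cells where 203 follow from the shares, a ratio of 0.94 (0.81–1.08). Of all these pairs, only Csf2ra and Ifngr1 had a thinned interval that left out 1, at 1.24 (1.01–1.51) in YFP+ cells. Their ratio in YFP− cells was 1.13 (0.71–1.70).

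The spread over cells was set against counting at each cell's own depth, for which a variance ratio of 1 is pure counting. With all UMIs the ratio was 1.38 among YFP− and 1.22 among YFP+ cells for Csf1r, 1.35 and 1.21 for Csf2ra, and 1.37 and 1.25 for Tgfbr1. It was 1.21 and 1.11 for Ifngr1, and 1.24 and 1.05 for Tgfbr2. The other receptors lay between 1.01 and 1.13. In cells thinned to 500 UMIs the ratio was 1.20 and 1.08 for Csf1r, 1.13 and 1.01 for Tgfbr2, and 1.01 and 1.07 for Csf2ra. The remaining receptors lay between 0.99 and 1.07 after thinning. No interval was taken for these ratios, and most receptors had few UMIs per cell at this depth. With all UMIs, 160 of the YFP− cells had no Csf1r UMI where 177 were expected if all cells held the library mean at their own depth, and 1240 YFP+ cells where 1209 were expected. At this depth a cell with no UMI cannot be read as a cell without the receptor.

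The libraries differ in depth per cell, so the ratios were also taken within bins of depth, a split chosen after seeing the data. In cells of 500 to 1000 UMIs, Csf1r held 1785 CPM in 150 YFP− cells and 1004 CPM in 1184 YFP+ cells, a log2 ratio of −0.83 (−1.05 to −0.60). In cells of 1000 to 2000 UMIs the ratio was −0.41 (−0.55 to −0.27), and in cells of at least 2000 UMIs, 607 and 1301 in number, it was −0.15 (−0.24 to −0.06). Csf1r was thus lower in YFP+ cells in all 3 bins, and the gap was widest in the shallowest cells. Each bin mixes the cell clusters described below, and within most of those clusters the interval of the Csf1r ratio held 0.

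Tgfbr1 behaved otherwise. Its ratio was −0.32 (−1.16 to 0.64) below 1000 UMIs, 0.33 (−0.17 to 0.87) from 1000 to 2000 UMIs, and 0.70 (0.37 to 1.04) above. The higher level in YFP+ cells was measurable only in the deepest of the 3 bins, where Tgfbr1 held 51.2 CPM among YFP− and 83.9 CPM among YFP+ cells. Ifngr1 likewise had an interval above 0 only in that bin, at 0.32 (0.17 to 0.47), beside −0.25 in each of the shallower bins. Tgfbr2 was below 0 in every bin, at −0.41, −0.74 and −0.26, although the first and the last interval held 0. The part of depth in these differences was not tested.

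**Figure D3:**
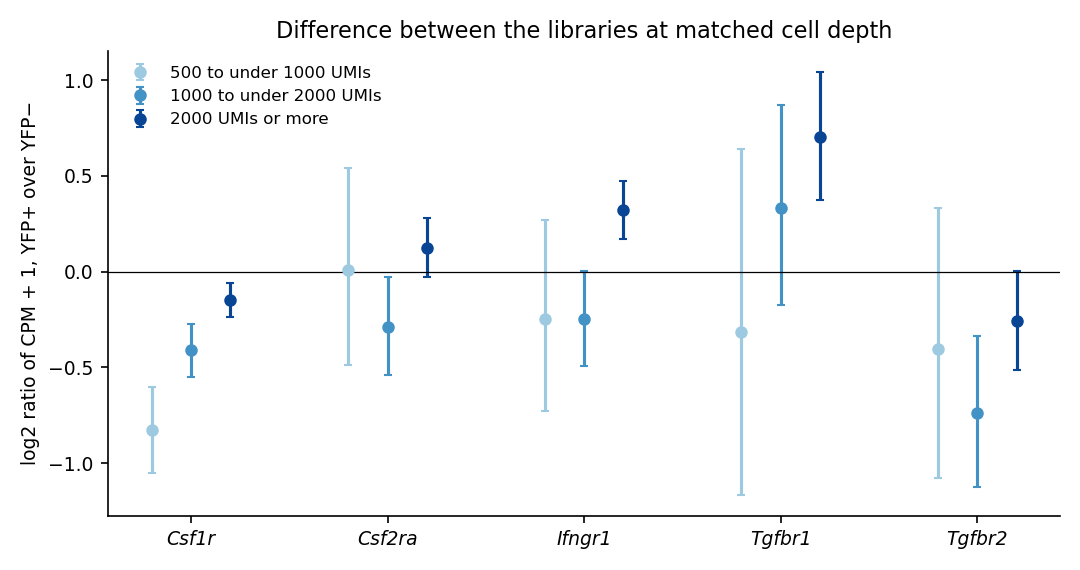
Log2 ratio of CPM + 1 in YFP+ over YFP− cells for 5 receptors, within cells of 500 to 1000, 1000 to 2000 and at least 2000 UMIs (light to dark), with exact 95% counting intervals and 1 library per condition. Csf1r lies below 0 in all 3 bins, and Tgfbr1 lies above 0, at 0.70, with an interval free of 0 in the deepest bin.

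Receptor levels were then followed over 10 clusters of cells, which were built on both libraries together, with the receptors and the genes of their pathways, 129 in all, left out. Cluster 1 (1128 cells) was led by Fhl3 and Cxcl13, cluster 2 (967) by Plpp7 and Rnu12, cluster 3 (843) by the early response genes Fosb, Jun and Fos, and cluster 4 (662) by mitochondrial genes such as mt-Co2. Cluster 5 (585) was monocyte-like, led by S100a4, S100a6 and Ccr2. Cluster 6 (404) was led by Ccl4, Cxcl2, Hspa1a and Il1b and had all 12 markers of the dissociation response raised, of which cluster 3 had 11 raised. Cluster 7 (201) was Cd209 macrophage-like, with Cd209f, Cd209g and Fcna, cluster 8 (135) interferon response-like, cluster 9 (99) the Acta2, Tagln cluster, and cluster 10 (74) cycling-like, with Top2a, Birc5 and Mki67.

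**Figure D4:**
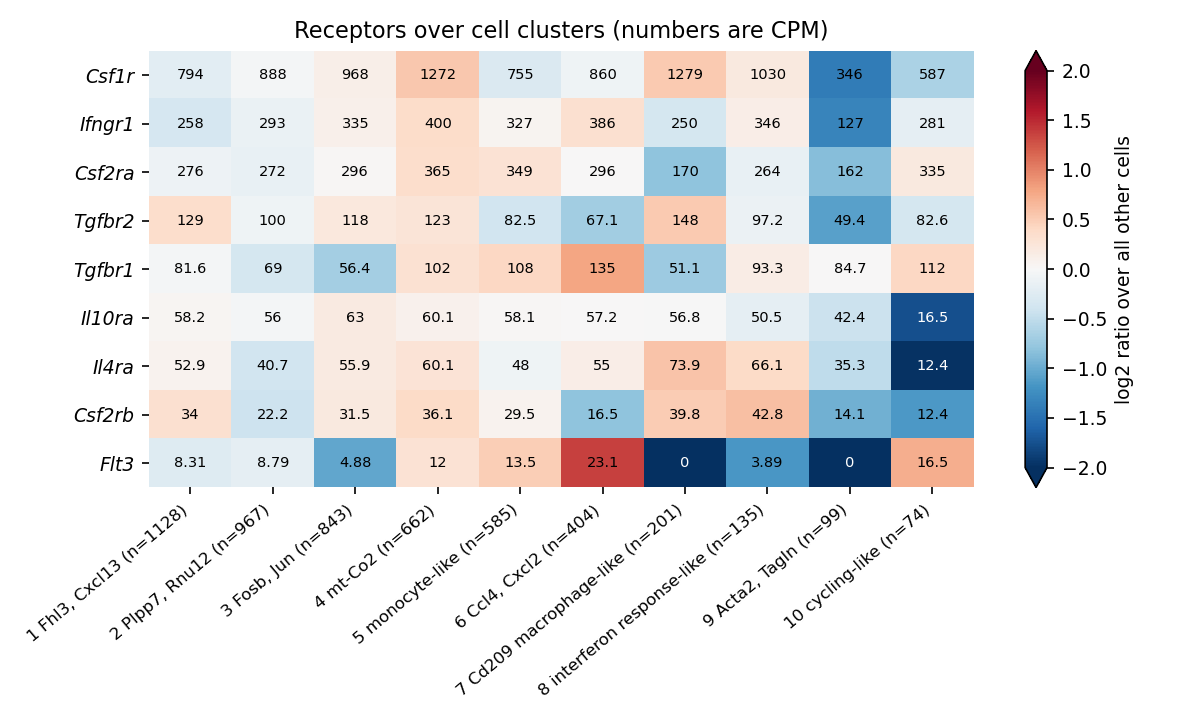
Levels of the 9 receptors (rows) in 10 clusters of cells (columns, with their number of cells), both libraries together. Numbers are CPM and colour is the log2 ratio over all other cells, from −2 (blue) to 2 (red). Csf1r is highest in the Cd209 macrophage-like cluster (1279 CPM) and the mt-Co2 cluster (1272 CPM), and Tgfbr1 in the Ccl4, Cxcl2 cluster (135 CPM).

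Csf1r ranged from 346 CPM (256–457) in the Acta2, Tagln cluster to 1279 CPM (1163–1402) in the Cd209 macrophage-like cluster. The mt-Co2 cluster, at 1272 CPM (1193–1356), was level with the latter. The monocyte-like cluster was at 755 CPM (706–806), and the cycling-like cluster at 587 CPM (494–691), the lowest of the clusters other than the Acta2, Tagln one. The interval of the cycling-like cluster lay below those of all clusters other than the Acta2, Tagln one, and no cluster lacked Csf1r. The clusters differed in depth, with a median of 3209.5 UMIs in the cycling-like, 1646 in the Cd209 macrophage-like and 1028.5 in the mt-Co2 cluster. Csf1r fell from the shallowest to the deepest bin, from 1785 to 886 CPM in YFP− and from 1004 to 800 CPM in YFP+ cells. Cluster 1 was shallow too, at a median of 964.5 UMIs, yet held only 794 CPM. The part of depth in the cluster levels was not tested.

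The Cd209 macrophage-like and the monocyte-like cluster, which express markers of resident macrophages and of monocytes, differed in several receptors and in opposite directions. Csf1r was higher in the Cd209 macrophage-like cluster, at a log2 ratio of 0.76 (0.59 to 0.92) over the monocyte-like cluster. Csf2ra was lower there, with 170 CPM (130–219) against 349 CPM (316–385), a log2 ratio of −1.03 (−1.44 to −0.64). Both held within each library, at 0.88 and 0.64 for Csf1r and at −1.21 and −0.95 for Csf2ra in YFP− and YFP+ cells, with intervals that left out 0. Both had the same direction when cells were clustered at a resolution of 0.4 or on 1000 variable genes.

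The TGF-beta receptor chains parted in the same way. Tgfbr2 was higher in the Cd209 macrophage-like cluster, with 148 CPM (110–194) against 82.5 CPM (66.9–100.5), a log2 ratio of 0.83 (0.32 to 1.33). Within the libraries it was at 0.78 (−0.19 to 1.77) in YFP− and 0.74 (0.09 to 1.36) in YFP+ cells. Tgfbr1 was lower, with 51.1 CPM (30.3–80.8) against 108 CPM (89.9–128), a log2 ratio of −1.06 (−1.84 to −0.35). Within the libraries Tgfbr1 was at −1.70 and −0.70 with intervals that held 0, from as few as 2 UMIs in the YFP− part of the Cd209 macrophage-like cluster. Ifngr1 was also lower in the Cd209 macrophage-like cluster, at −0.39 (−0.74 to −0.05), but within the libraries it was at −0.08 (−0.84 to 0.67) and −0.34 (−0.76 to 0.05), and at a resolution of 0.4 at −0.36 (−0.82 to 0.08), all with intervals that held 0. Il4ra was at 0.61 (−0.10 to 1.30), beside 0.74 (−0.22 to 1.61) at a resolution of 0.4 and 0.79 (0.06 to 1.47) on 1000 variable genes, where the interval left out 0.

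The number of Tgfbr1 UMIs per Tgfbr2 UMI sorted the clusters over a wide range. It was 2.02 (1.47–2.79) in the Ccl4, Cxcl2 cluster and 1.31 (0.996–1.72) in the monocyte-like cluster. Between these lay the Acta2, Tagln cluster at 1.71 (0.622–5.14) and the cycling-like cluster at 1.35 (0.729–2.54), both from few UMIs. It was 0.479 (0.376–0.608) in the early response cluster and 0.346 (0.191–0.602) in the Cd209 macrophage-like cluster. The Ccl4, Cxcl2 cluster had a ratio of 2.30 (1.05–5.41) in its YFP− and 1.96 (1.39–2.80) in its YFP+ cells, with intervals that overlapped. The monocyte-like cluster had 0.529 (0.208–1.26) in its YFP− cells, from 9 and 17 UMIs, and 1.47 (1.10–1.97) in its YFP+ cells. These intervals overlapped as well, and a high ratio was not seen in the few YFP− UMIs. The Ccl4, Cxcl2 cluster was not kept apart from the early response cluster at a resolution of 0.4.

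The makeup of the libraries differed as well, and its part in the Tgfbr1 difference was not tested. Tgfbr1 stood above all other cells in the monocyte-like cluster, at a log2 ratio of 0.42 (0.14 to 0.69), and in the Ccl4, Cxcl2 cluster, at 0.78 (0.49 to 1.06). Among YFP− cells the monocyte-like cluster held only 52.9 CPM (24.2–100.5), beside 60.0 CPM for the whole library, whereas the Ccl4, Cxcl2 cluster held 177 CPM among YFP− and 128 CPM among YFP+ cells. The former held 61 YFP− and 524 YFP+ cells and the latter 42 and 362, while the Cd209 macrophage-like cluster held 66 and 135. The 12 dissociation response markers summed to 7995 and 8605 CPM in the libraries, and the 7 inflammatory markers to 832 and 1021 CPM. When the YFP− cluster levels were weighted by the share that each cluster has of the YFP+ UMIs, an alternative added after seeing the data, the log2 ratio of Tgfbr1 was 0.47 in place of 0.62 and that of Csf1r −0.09 in place of −0.18. With that weighting the direction was the same for both receptors, and the Tgfbr1 ratio was short of 1.5-fold. No interval was taken for the weighted ratios, and the YFP− level of the monocyte-like cluster rests on 9 Tgfbr1 UMIs.

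Within clusters, the ratio of Tgfbr1 left out 0 in 3 of 10. In cluster 2, led by Plpp7 and Rnu12, it held 37.5 CPM among YFP− and 85.5 CPM among YFP+ cells, a log2 ratio of 1.17 (0.58 to 1.80). In the monocyte-like cluster it held 52.9 and 117 CPM, a log2 ratio of 1.13 (0.17 to 2.26). In the Cd209 macrophage-like cluster the ratio was 2.12 (0.10 to 4.77), from 2 UMIs among YFP− and 16 among YFP+ cells. It was 0.98 (−0.03 to 2.19) in cluster 1, led by Fhl3 and Cxcl13, and 1.61 (−0.11 to 3.87) in the interferon response-like cluster. In the early response cluster the ratio was −0.11 (−0.70 to 0.49), in the mt-Co2 cluster 0.03 (−0.67 to 0.76), in the Ccl4, Cxcl2 cluster −0.46 (−1.12 to 0.26), and in the cycling-like cluster −0.27 (−1.56 to 1.20). The intervals of these 6 clusters held 0, and the Acta2, Tagln cluster had no Tgfbr1 UMI among its YFP− cells. Whether these ratios differ from cluster to cluster was not tested. For Csf1r the ratio was −0.36 (−0.63 to −0.08) in the Cd209 macrophage-like cluster. In the Acta2, Tagln cluster it was 2.77 (0.24 to 7.36), from 1 UMI among YFP− and 48 among YFP+ cells. In all other clusters its interval held 0, with 0.05, −0.04, −0.06 and −0.17 in clusters 1 to 4. It was −0.11, −0.27, 0.12 and −0.48 in clusters 5, 6, 8 and 10.

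**Figure D5:**
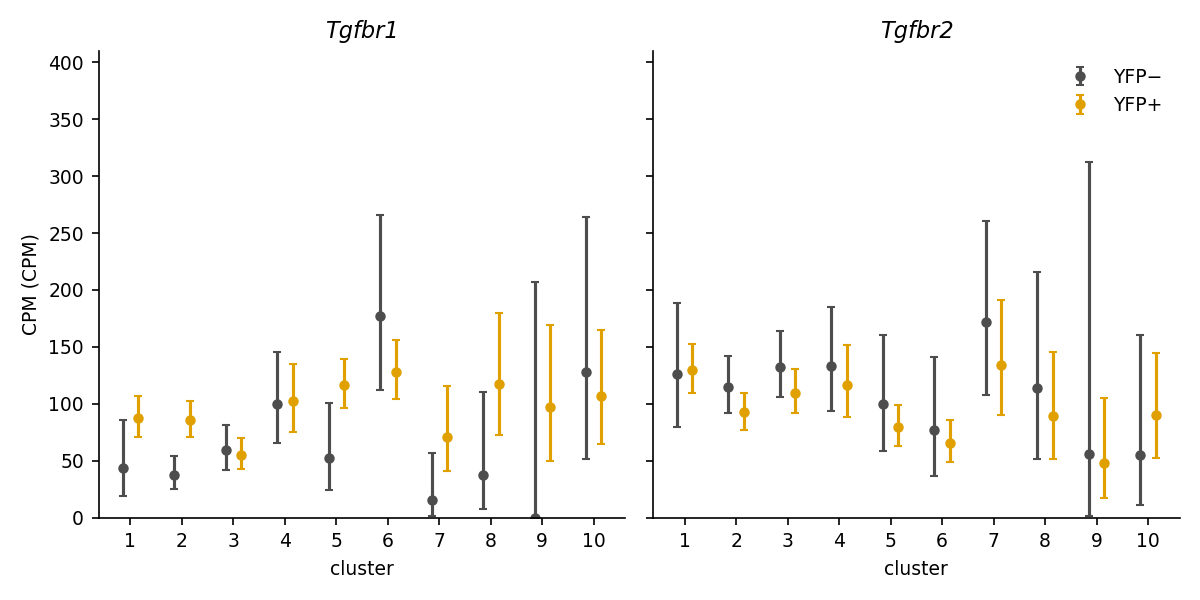
Levels of Tgfbr1 (left) and Tgfbr2 (right) in CPM for YFP− (grey) and YFP+ (gold) cells of clusters 1 to 10, with exact Poisson 95% intervals and 1 library per condition. Tgfbr1 lies higher in YFP+ cells in clusters 2, 5 and 7, where the ratios are 1.17, 1.13 and 2.12 and leave out 0, the last of them from 2 and 16 UMIs, and the intervals of Tgfbr2 overlap in every cluster.

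The remaining receptors were followed over the same clusters. Ifngr1 ran from 127 CPM (75.3–201) in the Acta2, Tagln cluster to 400 CPM (356–448) in the mt-Co2 cluster, with 386 CPM (347–429) in the Ccl4, Cxcl2 cluster. Its log2 ratio of YFP+ over YFP− was 0.39 (0.14 to 0.65) in the early response cluster and 0.62 (0.14 to 1.14) in the monocyte-like cluster. In all other clusters the interval of that ratio held 0. Il10ra lay between 50.5 and 63.0 CPM in clusters 1 to 8. In the cycling-like cluster Il10ra and Il4ra were counted only 4 and 3 times, 16.5 CPM (4.50–42.3) and 12.4 CPM (2.56–36.2), against 58.2 and 51.7 CPM in all other cells. The log2 ratios over other cells were −1.76 (−3.43 to −0.44) and −1.98 (−3.89 to −0.49), past counting error although they rest on few UMIs.

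Flt3 was highest in the Ccl4, Cxcl2 cluster, with 21 UMIs and 23.1 CPM (14.3–35.3), against 8.36 CPM in all other cells, a log2 ratio of 1.36 (0.63 to 2.05). It was not counted in the Cd209 macrophage-like cluster, where the interval reaches 10.5 CPM, nor in the Acta2, Tagln cluster, where it reaches 26.0 CPM. The cluster led by Ccl4 and Cxcl2 thus had the highest level of both Tgfbr1 and Flt3 among the 10 clusters, although the Flt3 interval overlapped those of several clusters.

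Csf2rb has a close neighbour and copy, Csf2rb2 (chr15:78282507-78305721, minus strand), a second beta chain found in mice that serves IL-3. Csf2rb2 held 7.03 CPM (4.10–11.3) among YFP− and 6.82 CPM (4.99–9.09) among YFP+ cells, so Csf2rb had 3.88 and 4.17 UMIs for each of Csf2rb2. Over 2628 aligned coding bases of the longest GENCODE M21 transcripts the copies were 95.2% identical, and reads from identical stretches could be lost or split in counting. Of the 451 windows of 50 bases in the last 500 bases of the Csf2rb transcript, where 3′ counting takes its reads, 0 occurred in Csf2rb2. The ends of the coding sequences are shown, because there the copies part, with differing bases in capitals.
Csf2rb: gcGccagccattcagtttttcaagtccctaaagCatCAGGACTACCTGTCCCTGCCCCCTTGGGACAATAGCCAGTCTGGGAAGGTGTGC
Csf2rb2: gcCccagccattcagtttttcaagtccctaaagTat

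The coding sequence of Csf2rb runs for 54 bases past the end of that of Csf2rb2, and the 36 bases before that point differ at 2 positions. Counts of the beta chain were low beside the alpha chain. Csf2ra had 10.4 UMIs for each UMI of Csf2rb in both libraries, with intervals of 8.10–13.7 in YFP− and 8.97–12.1 in YFP+ cells. The receptor's alpha and beta chains thus kept the same proportion of RNA in both libraries within counting error.

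Genes whose level over the 10 clusters was most like that of a receptor were named by Pearson's r of log2(CPM + 10) over 2623 genes with a mean of at least 50 CPM. The clusters share libraries and depth, so the values are descriptions. Csf1r was most like Clec4a3 (0.97) and Nipa2 (0.96). Csf2ra was most like Sla (0.97), Lair1 (0.97) and Ppib (0.94), and Ifngr1 like Cd53 (0.97), Ctsh (0.96) and Naaa (0.96). Among the TGF-beta receptor chains, Tgfbr2 was most like Dse (0.99), F13a1 (0.98) and Slc9a9 (0.97), while Tgfbr1 was most like Ccr2 (0.85), Metrnl (0.83) and Col14a1 (0.83). Ccr2 is the chemokine receptor of classical monocytes, and F13a1 encodes a coagulation factor chain made by tissue macrophages.

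Il10ra was most like Mertk (0.95), Fam117b (0.94) and Stx4a (0.94), Il4ra like Slc43a2 (0.94), Mertk (0.94) and Kansl1 (0.93), and Csf2rb like Clec2d (0.93), Kansl1 (0.93) and Samhd1 (0.93). Mertk, a receptor kinase for the uptake of dying cells, was thus named for both Il10ra and Il4ra. Both receptors were lowest in clusters 9 and 10, from 6 and 4 UMIs of Il10ra and 5 and 3 of Il4ra. In the other clusters Il10ra stayed between 50.5 and 63.0 CPM. Any r of these receptors therefore leans on clusters with few UMIs, and r was not taken without those clusters. Between the receptors themselves r was highest for Il10ra and Il4ra (0.91) and for Csf1r and Tgfbr2 (0.82), and lowest for Tgfbr1 and Tgfbr2 (−0.57). Csf1r and Csf2ra were weakly alike (0.30).

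Of 8 partner chains, 4 reached a mean of 20 CPM, and 0 of these were 1.5-fold apart in either direction. Il10rb, the second chain for IL-10, held 220.4 and 222 CPM, so that it outnumbered Il10ra by 3.63 UMIs to 1 in YFP− and 3.98 to 1 in YFP+ cells. Ifngr2, the second chain for interferon-gamma, held 67.0 and 67.6 CPM, and Ifngr1 had 4.33 and 4.81 UMIs for each of its UMIs. Il13ra1, which pairs with IL4RA, held 66.2 and 71.4 CPM. Acvrl1, a type I receptor of the TGF-beta family named after its values were seen, was higher in YFP+ cells beyond counting error, with 40.5 and 53.8 CPM and a log2 ratio of 0.40 (0.08 to 0.73).

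Ligand genes were scarce in these macrophages with 1 exception. Of 11 ligand genes only Tgfb1 reached a mean of 20 CPM, with 178 CPM among YFP− and 143 CPM among YFP+ cells, a log2 ratio of −0.31 (−0.48 to −0.15). Flt3l held 9.93 and 8.45 CPM and Tgfb3 1.65 and 2.37 CPM. Csf2, Il13 and Ifng were at 0 in both libraries. Tgfb1 thus differed in the direction of Tgfbr2 and against Tgfbr1.

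Downstream of the cytokine receptors, 5 of 11 JAK and STAT genes reached 20 CPM and 0 were 1.5-fold apart. Jak1 held 110 and 115 CPM, Stat6, the STAT of IL-4, 40.5 and 37.9 CPM, and Stat3, the STAT of IL-10, 33.1 and 35.3 CPM. Of 7 feedback inhibitors 3 were at that level and 0 were 1.5-fold apart, although the log2 ratio of Socs3, induced by STAT3, was 0.46 (0.16 to 0.77). Pias1 was at 93.9 and 90.4 CPM and Ptpn1 at 78.2 and 74.8 CPM.

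Around CSF1R, 9 of 11 adaptors and regulators reached 20 CPM, and 0 were 1.5-fold apart. Tyrobp, the adaptor DAP12, was the most abundant with 2764 and 2578 CPM. Spi1, which encodes PU.1, held 340.4 and 353 CPM, and Inpp5d, the lipid phosphatase SHIP1, 129 and 144 CPM. The log2 ratios of these 3 genes lay between −0.10 and 0.16. Pik3cd, a catalytic subunit of phosphoinositide 3-kinase, was lower in YFP+ cells beyond counting error, with 45.5 and 33.6 CPM and a log2 ratio of −0.42 (−0.75 to −0.09). It is named here after its values were seen.

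Of 17 SMADs and TGF-beta regulators, 7 reached 20 CPM, and 1 was at least 1.5-fold higher and 0 lower in YFP+ cells. Skil, a SMAD corepressor that is itself induced by TGF-beta, held 36.8 CPM among YFP− and 69.4 CPM among YFP+ cells, a log2 ratio of 0.90 (0.57 to 1.23). Its interval lay wholly above 0, as did that of Tgfbr1. Nrros, which anchors latent TGF-beta on macrophages and microglia, held 174 and 146 CPM, a log2 ratio of −0.25 (−0.42 to −0.09), and Ski held 63.3 and 55.0 CPM. Among 8 known TGF-beta targets, 5 reached 20 CPM, and Skil was again the 1 that was higher, with 0 lower. Hpgd held 433 and 425 CPM, Tgfbi 337 and 348 CPM, and Ltc4s, a leukotriene synthase, 352 and 237 CPM, a log2 ratio of −0.57 (−0.69 to −0.45). The 5 targets thus went in both directions, with a median log2 ratio of 0.05.

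Of 8 known IL-4 targets, 5 reached 20 CPM, and these parted in both directions. Retnla, a secreted protein of alternatively activated macrophages, was higher in YFP+ cells, with 618 and 1043 CPM and a log2 ratio of 0.75 (0.67 to 0.83). Ccl24, an eotaxin, was lower, with 285 and 177 CPM and a log2 ratio of −0.68 (−0.82 to −0.55), and so was the lectin Clec10a, with 244 and 151 CPM and a log2 ratio of −0.68 (−0.83 to −0.54). Mgl2 held 1092 and 1104 CPM and Mrc1 996 and 894 CPM. The median of the list was −0.16.

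Of 8 known interferon-gamma targets, 3 reached 20 CPM and 0 were 1.5-fold apart, among them Irf8 with 189 and 184 CPM, Ciita with 31.8 and 38.4 CPM and Irf1 with 32.3 and 23.9 CPM. Of 33 other cytokine and growth factor receptors, 15 reached 20 CPM and 0 were 1.5-fold apart, with a median log2 ratio of −0.03. Lifr, the receptor chain for LIF, was the most abundant of them at 378 and 404 CPM, above Ifngr1 and Csf2ra. Ifnar2 held 132 and 154 CPM and Il6ra 136 and 145 CPM. Tgfbr1 was thus the only receptor among the 23 of both sets with a mean of at least 20 CPM that was 1.5-fold apart between the libraries, although not with equal weight per cell, with a pseudocount of 10 CPM or with YFP− clusters weighted as in YFP+. Over all 5531 genes at that level, 1.54% were 1.5-fold higher and 5.77% were 1.5-fold lower in YFP+ cells, so a count this small does not set the receptors apart.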

How the data were processed

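Single-cell RNA was measured in 1 YFP− and 1 YFP+ library of sorted sciatic nerve macrophages, each from the combined nerves of 19 mice. The authors deposited raw UMI counts per gene and barcode, from 10x Chromium v2 libraries mapped to GRCm38/mm10, with no normalization and no filter on barcodes. Per the labels, Cell Ranger 3.0.2 and Seurat 2.2.0 were used, while the methods name an earlier version of the pipeline, and the release of the gene annotation is not given in the sources used here. The study's own filter on reads per cell could not be applied to UMI counts.

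Cells had at least 500 UMIs and 200 genes. Counts were summed over cells and given as CPM with exact Poisson intervals, and shares with Clopper-Pearson intervals. Ratios used a pseudocount of 1 CPM and a minimum mean of 20 CPM for counts at 1.5-fold, with 3 counts per library as the floor. Cells were thinned to 500 UMIs, with 1000 as an alternative, in a random draw that was made once for each depth. Functions were tested on simulated data. Clustering used scanpy 1.11.5 and leidenalg 0.10.2 on 2000 variable genes, 20 components, 20 neighbours, resolution 0.8 and seed 0, with numpy 2.4.6, scipy 1.17.1 and pandas 2.3.3 under Python 3.11.15. Coding sequences were aligned with biopython 1.88, and figures were drawn with matplotlib 3.10.9. Doublets were kept, as no source names their removal, and an alternative left out the 5% of cells with the most UMIs.

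Gene positions came from GENCODE M21, which held 99.8% of the gene identifiers. The genes named were the 9 receptors, Csf2rb2, the 3 most abundant of each pathway list and up to 5 at least 1.5-fold apart, the leading genes of clusters and the 3 genes most like each receptor, except that 1 marker list and 1 like gene are not reported here. The receptors, lists and markers were chosen with earlier results of these data known. The 16 marker lists served to name clusters: beside those given with the results, they summed to 57.9 and 53.8 CPM for B cells, 0.414 and 0.889 for T cells, 1.24 and 1.33 for neutrophils, 0.000 and 0.296 for mast cells, 447 and 407 for dendritic cells, 11.2 and 9.63 for endothelial cells, 23.6 and 94.6 for fibroblasts, 232 and 221 for cycling cells, 65.8 and 88.6 for the interferon response, and 2400 and 2036 for Cd209 macrophages in the YFP− and YFP+ library.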

Additional observations from a re-analysis of the deposited data

How the results depend on the processing

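The ratios of the receptors and the counts of receptors apart were recomputed in 12 alternatives (2 of them added after seeing the data), and all but 10 of these values moved by less than counting error. A minimum mean of 5 CPM could not move the ratios by its construction. The contrasts between clusters were recomputed at a resolution of 0.4 and on 1000 variable genes, and moved by less than counting error. With equal weight per cell the log2 ratio of YFP+ over YFP− was −0.29 for Csf1r and −0.0013 for Ifngr1. With YFP− clusters weighted as in YFP+ it was −0.090 for Csf1r. With cells thinned to 500 UMIs it was 1.52 for Flt3, −0.86 for Il4ra and 0.95 for Tgfbr1. These values come from a random draw that was not repeated, that of Flt3 from 2 and 25 cells with a UMI. On average thinning gives each cell equal weight, and with equal weight and all UMIs the ratios were 0.55, −0.42 and 0.42. The count of receptors at least 1.5-fold higher in YFP+ cells was 0 in place of 1 with equal weight per cell, with a pseudocount of 10 CPM and with YFP− clusters weighted as in YFP+, and the count of lower ones was 1 in place of 0, Il4ra, with thinning. Causes were not tested. Over all genes, 85 were higher and 319 lower, beside 314 and 616 with thinning, 340.0 and 950.0 at a mean of at least 5 CPM, and 44 higher with a pseudocount of 10 CPM. The shares of cells were higher at 1000 than at 500 UMIs, as more UMIs are read per cell. No paired analysis was possible because each condition has 1 library, and no library could be left out. Counting error limits Il10ra, Il4ra, Csf2rb and Flt3, for which the libraries' intervals over all cells overlapped.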
